A study of Mus musculus with 9 samples.

Results

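Integrins and laminins are the receptors and the ligands of the contact between a cell and its basement membrane. The 37 genes described here are the rows of the gene table whose symbol names an integrin α chain (18 genes), an integrin β chain (8 genes) or a laminin α, β or γ chain (11 genes), out of 56289 genes in all, and the rule reads the symbols alone, although the group was proposed with earlier results of these data known. RNA was sequenced from mouse cultures labelled as RAW264.7 macrophages of the BALB/c strain, in 3 groups of 3 libraries. Con was labelled untreated, and the study's methods describe PBS for control cells. TNF-α had 24 h with 20 ng/ml recombinant human TNF-α. TNF-α+WBT had 24 h with the same TNF-α together with 1 μg/ml of an extract of Wang Bi Tablet, a Chinese herbal medicine. The extract is written WBP in the labels. RAW264.7 is a single cell line, and the study's methods call the 3 libraries of a group biological replicates, while the labels do not say whether they came from separate cultures, so the p-values measure the spread between these libraries, which may in part be technical. Values are FPKM (fragments per kilobase of transcript per 1000000 fragments), which allows levels to be compared between genes.

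An integrin is a pair of 1 α and 1 β chain that spans the membrane. The β1 chain (Itgb1) pairs with most α chains, and the α chain sets the ligand: collagens, laminins, or proteins such as fibronectin and vitronectin that carry an Arg-Gly-Asp (RGD) motif. A laminin is a trimer of 1 α, 1 β and 1 γ chain that polymerises into the basement membrane, where integrins and dystroglycan bind its α chain. In Schwann cells and fibroblasts these pairs anchor the cell to its matrix, while macrophages are known for the leukocyte integrins, which share the β2 chain (Itgb2).

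The depth estimated from the FPKM steps of low genes was between 16969000 and 26334000 fragments per library, with the lowest depths in the TNF-α+WBT group. The labelled cell type went against its markers: of 15 macrophage markers, Cd14 was the 1 gene above 1 FPKM in every library, while 6 stood at 0 in each library: Ctss, Cybb, Tyrobp, Adgre1, Spi1 and Ptprc. Of 12 Schwann cell markers 8 were above 1 FPKM in every library, and of 10 fibroblast markers 7. Markers of endothelium, epithelium and skeletal muscle had 0 of 6 above 1 FPKM in every library each. The summed Schwann cell markers ran from 926 to 983 FPKM in Con, from 752 to 813 in TNF-α and from 818 to 847 in TNF-α+WBT, so they moved with the groups. The summed fibroblast markers ran from 2024 to 2174 FPKM in Con, from 2181 to 2201 in TNF-α and from 2096 to 2134 in TNF-α+WBT. A few matrix genes with high FPKM weigh most in this sum, and they did not move together. From Con to TNF-α, the mean of Col1a2 went from 277 to 332 FPKM, that of Postn from 242 to 161 and that of Col3a1 from 647 to 631. The part of these differences in marker levels in the results below was not tested. In bulk RNA fewer cells of a type and less RNA per cell cannot be told apart.

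Of the 37 genes, 13 had a mean of at least 10 FPKM over the 9 libraries, 9 had a mean between 1 and 10, 12 had a lower mean above 0, and 3 (Itgam, Itgad and Lama1) were listed at 0 in every library. The test took the genes with a value above 0 in 3 or more libraries, 33 of the members. The 4 members left out were those at 0 and Itgb6, a partner of αv, which had 0.0114 FPKM, worth 1 estimated fragment, in the first TNF-α+WBT library and 0 elsewhere. The levels plotted for 21 of the 22 members with a mean of at least 1 FPKM span from Itga2b to Itgb1.

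**Figure D1:**
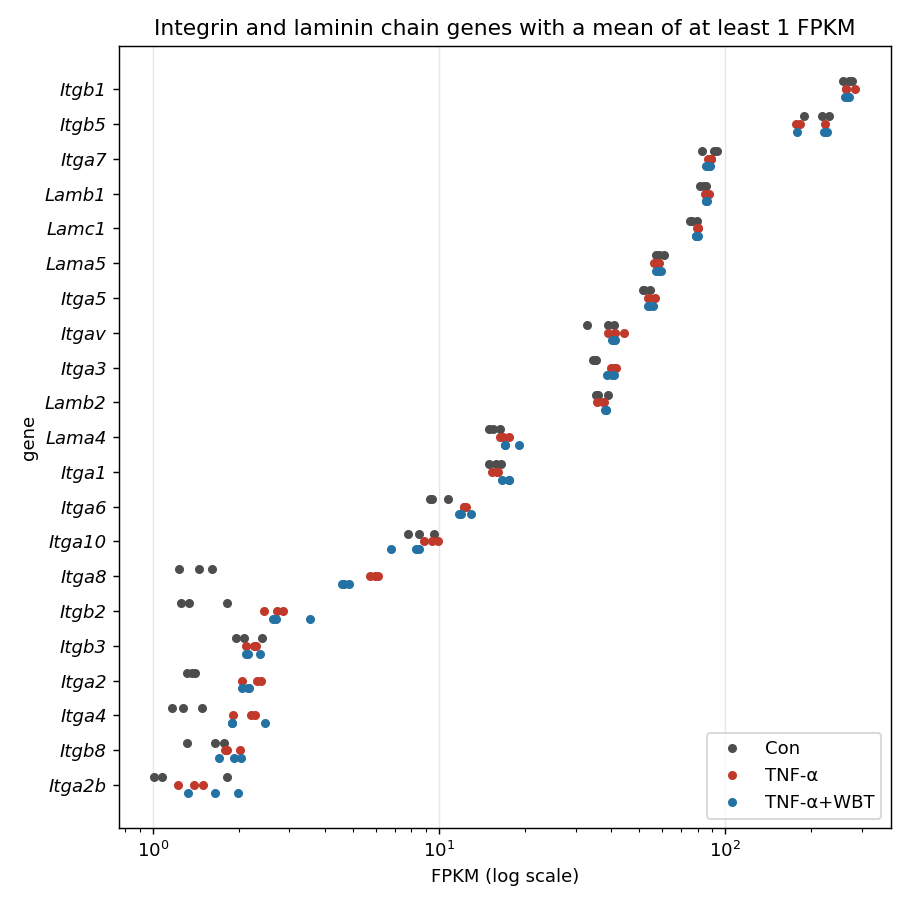
FPKM on a log scale in each of the 9 libraries (points, coloured by group) for 21 integrin and laminin genes averaging at least 1 FPKM, ordered by mean. Itgb1 lies highest, at 258 to 285 FPKM; the Con points of Itga8 lie to the left of the other groups, at 1.24 to 1.61 FPKM.

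Itgb1, the common β chain, had the highest level, with 278, 258 and 272 FPKM in Con, 265, 285 and 265 in TNF-α, and 262, 270 and 270 in TNF-α+WBT. The groups overlapped, and the log2 difference between TNF-α and Con was 0.01 (SE 0.04, adjusted p = 0.945, 95% interval -0.09 to 0.11, limma with Benjamini-Hochberg adjustment). The 12 α chains that can pair with β1, Itgav among them, summed to between 238 and 280 FPKM per library, close to the level of Itgb1 itself. That sum was 253 ± 13 FPKM in Con, 274 ± 5.83 in TNF-α and 269 ± 0.401 in TNF-α+WBT (SD, n = 3).

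Itgb5, a β chain that pairs with αv to bind vitronectin, came next, at 188, 230 and 217 FPKM in Con, 177, 183 and 223 in TNF-α, and 179, 221 and 227 in TNF-α+WBT. Each group held low and high libraries, and the coefficient of variation over the 9 libraries was 11%. The spread came with the division of fragments between transcripts: Itgb5-207, of 2130 bases, had 27.5 to 43.0 FPKM in the 4 low libraries and 136 to 157 in the 5 high ones, while Itgb5-201, of 3056 bases, ran the other way. In estimated fragments per 1000000, which are not divided by transcript length, Itgb5 lay between 509 and 556 in every library, with a coefficient of variation of 2.79%. The log2 difference between TNF-α and Con in FPKM was -0.13 (SE 0.12, adjusted p = 0.707).

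**Figure D2:**
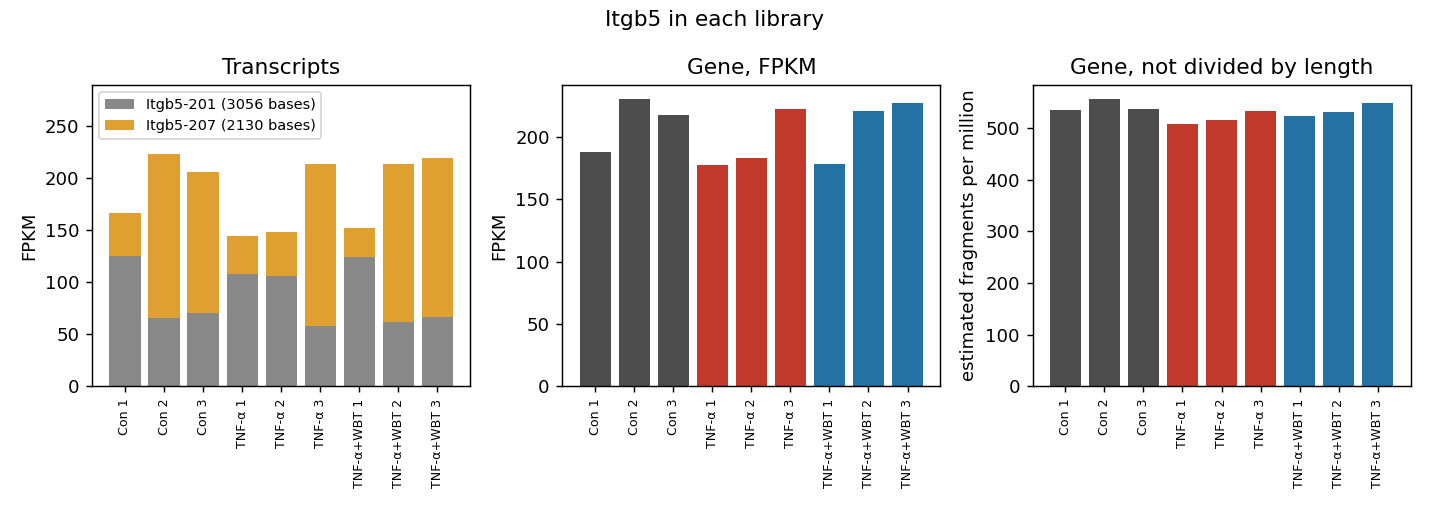
Itgb5 in each library, as FPKM of 2 transcripts (left), FPKM of the gene (middle) and estimated fragments per 1000000 (right), with bars starting at 0. The libraries lie between 177 and 230 FPKM and within 509 to 556 fragments per 1000000.

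Itgav, the αv chain that binds RGD ligands with several β chains, had 32.8, 38.8 and 40.8 FPKM in Con, 44.4, 39.0 and 41.1 in TNF-α, and 40.2, 41.0 and 41.2 in TNF-α+WBT. The groups overlapped, with the first Con library lowest, and its log2 difference between TNF-α and Con was 0.15 (SE 0.08, adjusted p = 0.425). Itga5, the fibronectin receptor chain, had 51.6, 54.7 and 51.9 FPKM in Con, 57.0, 53.7 and 54.1 in TNF-α, and 53.5, 54.0 and 56.1 in TNF-α+WBT, with overlapping groups and a log2 difference of 0.06 (SE 0.04, adjusted p = 0.561). The remaining αv partners measured were low. Itgb3, the β chain of platelets and osteoclasts, had 2.08, 2.41 and 1.95 FPKM in Con, 2.12, 2.27 and 2.29 in TNF-α, and 2.15, 2.38 and 2.12 in TNF-α+WBT, with overlapping groups. Itgb8, whose pair with αv activates latent TGF-β, had 1.31, 1.77 and 1.64 FPKM in Con, 2.01, 1.81 and 1.79 in TNF-α, and 1.71, 1.93 and 2.03 in TNF-α+WBT; its Con libraries lay below those of TNF-α, but the log2 difference of 0.24 (SE 0.15, adjusted p = 0.497) did not pass the test. Itga2b, the platelet chain that pairs with β3, had 1.07, 1.82 and 1.01 FPKM in Con, 1.49, 1.39 and 1.23 in TNF-α, and 1.65, 1.99 and 1.33 in TNF-α+WBT, and its spread within Con was as wide as that between groups, on at most 57.9 estimated fragments in a library.

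Of the collagen receptors, Itga1 had 14.9, 16.4 and 15.8 FPKM in Con, 15.9, 16.1 and 15.3 in TNF-α, and 17.6, 17.6 and 16.6 in TNF-α+WBT. Its TNF-α+WBT values lay above those of both other groups, and its log2 difference between TNF-α and Con was 0.01 (SE 0.05, adjusted p = 0.969). Itga10 had 7.80, 8.55 and 9.62 FPKM in Con, 9.44, 8.89 and 9.88 in TNF-α, and 8.53, 6.79 and 8.30 in TNF-α+WBT, where the last group lay below TNF-α and overlapped Con. Exons of Itga1 overlap those of Gm49395 on the same strand, and exons of Itga10 those of Gm42957, so their fragments could have been divided between genes. Itga11 was low, at 0.0839 to 0.222 FPKM.

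Itga7, a laminin receptor chain of muscle and Schwann cells, had the highest level of any α chain. It lay at 82.7, 93.7 and 91.3 FPKM in Con, 89.5, 87.2 and 89.4 in TNF-α, and 87.0, 88.8 and 85.3 in TNF-α+WBT, and the log2 difference between TNF-α and Con was -0.01 (SE 0.05, adjusted p = 0.978, 95% interval -0.11 to 0.10). Itgb4, which pairs with α6 in epithelial hemidesmosomes, stayed between 0.325 and 0.895 FPKM.

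The laminin chains with high levels occur in laminins of vessel walls, nerves and many soft tissues, but Lama2, an α chain of nerve laminin, was low. Lamb1, the common laminin β chain, had 81.9, 85.7 and 84.1 FPKM in Con, 85.1, 85.6 and 87.6 in TNF-α, and 85.8, 85.6 and 86.4 in TNF-α+WBT. Lamc1, the γ chain of most laminins, had 75.2, 79.6 and 76.6 FPKM in Con, 80.0, 80.0 and 79.4 in TNF-α, and 80.4, 79.1 and 78.8 in TNF-α+WBT. In both genes the groups overlapped, and the log2 differences between TNF-α and Con were 0.04 (SE 0.03, adjusted p = 0.619) and 0.05 (SE 0.03, adjusted p = 0.507). Of the α chains, Lama5 had 57.4, 61.3 and 58.8 FPKM in Con, 58.7, 56.4 and 57.3 in TNF-α, and 58.6, 59.8 and 57.4 in TNF-α+WBT. Lama4, the α chain of endothelial, muscle and nerve laminins, had 15.4, 16.3 and 14.9 FPKM in Con, 16.3, 17.5 and 16.8 in TNF-α, and 17.0, 19.0 and 17.0 in TNF-α+WBT. Lama4 was the chain with the larger difference between TNF-α and Con, 0.12 on the log2 scale (SE 0.06, adjusted p = 0.407), against -0.04 for Lama5 (SE 0.04, adjusted p = 0.673). Lamb2, the β chain of synaptic and kidney laminins, had 35.3, 38.8 and 35.9 FPKM in Con, 37.3, 37.6 and 35.5 in TNF-α, and 37.9, 38.2 and 38.3 in TNF-α+WBT, with a log2 difference of 0.01 (SE 0.04, adjusted p = 0.972). Summed over the chains of a kind, the libraries held 72.9 to 78.9 FPKM of laminin α, 118 to 125 of laminin β and 76.6 to 83.0 of laminin γ chains. Over the 13 members with a mean of at least 10 FPKM, the coefficient of variation over all 9 libraries had a median of 3.67%, from 1.85% for Lamb1 to 11.4% for Itga6.

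Other laminin chains were low. Lama2, the α chain of muscle and peripheral nerve laminin, had 0.0476 to 0.152 FPKM. Lama3 and Lamb3, chains of epithelial basement membranes, had 0.000619 to 0.0321 and 0.239 to 0.475 FPKM. Lamc3 had 0.0237 to 0.182 FPKM, with at most 21.1 estimated fragments. Lama1, the α chain of early embryonic laminin, was listed at 0, and up to 3 fragments per library remain possible at a count of 0 (counting error only).

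The comparison of TNF-α with Con asks what the cytokine changed. At an adjusted p under 0.05, 6 of the 33 members tested were called, each of them higher in TNF-α. Of these, Itga8, Itga3, Itga2, Itgb2 and Itga6 are described here. That is 18.2% of the members, against 4.86% of all 25417 genes tested called in either direction and 2.94% called higher. The 6 are among the 22 members with a mean of at least 1 FPKM, and of all genes at that level 8.37% were called. By the thresholds of the study's methods (a fold change over 2 with an unadjusted p under 0.05), 2 members passed, Itga8 among them, against 2.42% of all genes. Of the 33 members 26 had a positive and 7 a negative difference, of any size, against 12881 positive and 12518 negative of all 25417 genes tested. The median log2 difference of the members was 0.11, against 0.00 over all genes tested.

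Itga8, the α8 chain that pairs with β1 and binds RGD ligands such as nephronectin, changed most. It had 1.45, 1.24 and 1.61 FPKM in Con, 5.76, 6.13 and 5.97 in TNF-α, and 4.67, 4.58 and 4.84 in TNF-α+WBT. The 3 groups did not overlap, with Con lowest, TNF-α highest and TNF-α+WBT between them. The mean in TNF-α was 4.15-fold that in Con, and the log2 difference was 1.99 (SE 0.10, adjusted p = 1.41e-05, limma). The call held in each of the 20 alternative settings, where the log2 difference ran from 1.52 to 2.10. The values rested on 153 to 221 estimated fragments in Con and 649 to 799 in TNF-α, and the transcript Itga8-201 carried 1.2 to 1.46 FPKM in Con and 5.72 to 6.08 in TNF-α. The lncRNA E030013I19Rik overlaps Itga8 exons on the opposite strand, and whether the counting used strand is not given in the sources used here.

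Itga2, the α chain of a collagen and laminin receptor, had 1.32, 1.40 and 1.37 FPKM in Con, 2.04, 2.32 and 2.40 in TNF-α, and 2.05, 2.15 and 2.17 in TNF-α+WBT. Con lay below both other groups, which overlapped. The log2 difference between TNF-α and Con was 0.68 (SE 0.11, adjusted p = 0.011), from 197 to 372 estimated fragments per library.

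Itga3 and Itga6, which with Itga7 are the α chains listed here as laminin receptors, were higher in TNF-α. Itga3 had 34.6, 35.2 and 35.0 FPKM in Con, 40.8, 39.8 and 41.4 in TNF-α, and 40.4, 38.6 and 40.7 in TNF-α+WBT. The difference was small, 0.22 on the log2 scale (SE 0.03, adjusted p = 0.00733), but the Con libraries lay within 1 FPKM of each other and below all 6 others. Itga6 had 9.43, 10.8 and 9.33 FPKM in Con, 12.2, 12.4 and 12.2 in TNF-α, and 11.7, 12.9 and 11.9 in TNF-α+WBT. Its log2 difference was 0.32 (SE 0.07, adjusted p = 0.0295), and Con did not overlap the other groups.

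Itgb2, the β chain of the leukocyte integrins, had 1.26, 1.81 and 1.34 FPKM in Con, 2.85, 2.45 and 2.72 in TNF-α, and 2.63, 3.54 and 2.68 in TNF-α+WBT. The log2 difference between TNF-α and Con was 0.84 (SE 0.17, adjusted p = 0.0287), on 67.0 to 186 estimated fragments per library. Its α partners were at or near 0: Itgam and Itgad were listed at 0, Itgax did not exceed 0.0147 FPKM, worth 1 estimated fragment, and Itgal did not exceed 0.0488 FPKM, or 6.0 estimated fragments. Itgb7, the other leukocyte β chain, ranged from 0.0949 to 0.894 FPKM, and its partner Itgae from 0.0472 to 0.138.

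Itga4, the α chain that with β1 binds VCAM-1, missed the threshold. It had 1.28, 1.17 and 1.48 FPKM in Con, 2.20, 1.90 and 2.27 in TNF-α, and 2.46, 1.89 and 1.90 in TNF-α+WBT. The log2 difference between TNF-α and Con was 0.66 (SE 0.16, adjusted p = 0.0519), although Con lay below the other groups, and in 6 of the 20 alternative settings it was called. Exons of Cerkl overlap those of Itga4 on the opposite strand. Its relative Itga9 had 0.391 to 0.645 FPKM.

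**Figure D3:**
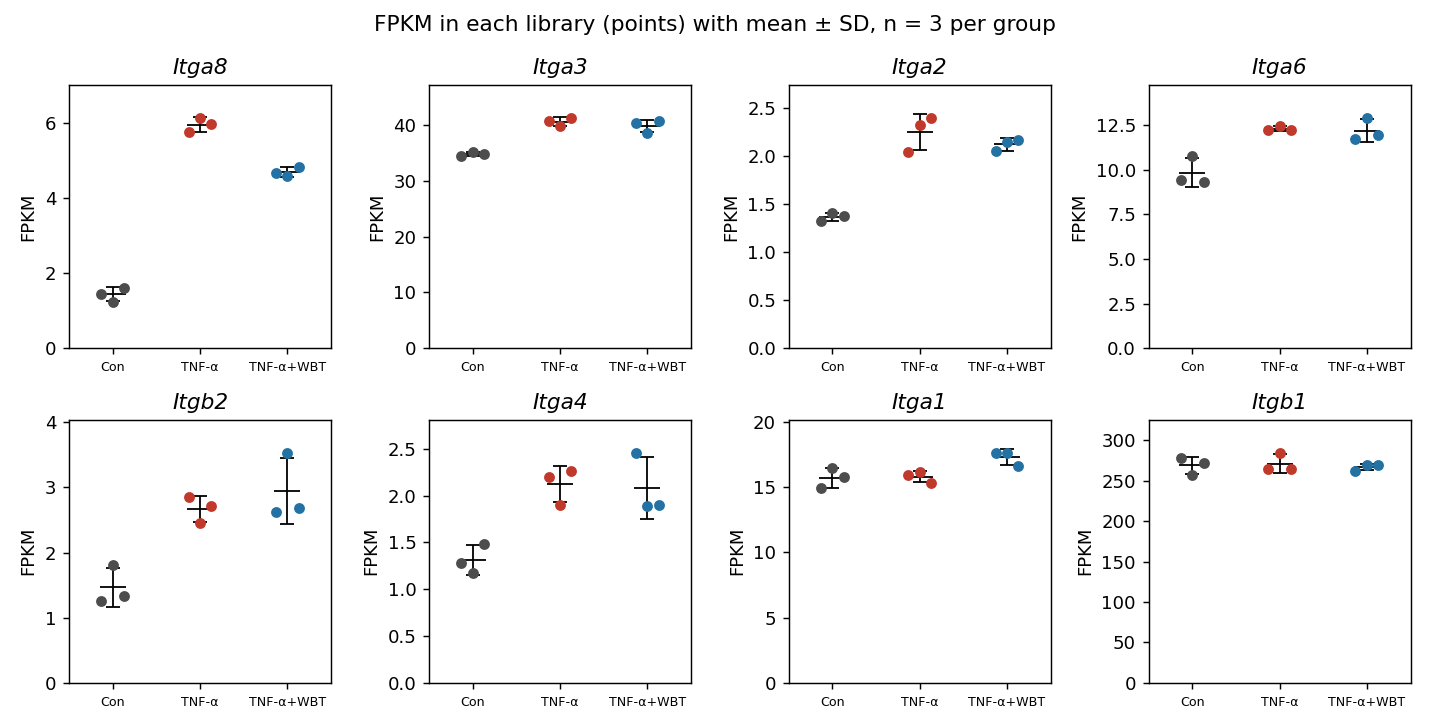
FPKM in each library (points) with the mean and SD of each group (n = 3) for 5 of the genes called between TNF-α and Con, for Itga4, which missed the threshold, and for Itga1 and Itgb1. Every axis starts at 0; the TNF-α points of Itga8 lie at 5.76 to 6.13 FPKM against 1.24 to 1.61 in Con.

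An exact two-sided permutation test of 3 libraries against 3 cannot go below p = 0.1, and each of the 6 called members reached that value. Several calls were lost in fits with 1 library fewer. The number of members called was 3 without the third Con library, 3 without the first and 3 without the second TNF-α library, and 2 without the third TNF-α library. Itga8 and Itga3 were called in each of these fits, whereas Itgb2 and Itga6 were lost without the first or the third Con library or any 1 TNF-α library. Their log2 differences stayed between 0.74 and 0.99 for Itgb2 and between 0.29 and 0.39 for Itga6 in the 9 fits without 1 library. Itga2 was lost without the second or the third TNF-α library, at adjusted p = 0.0509 and 0.0529.

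The comparison of TNF-α+WBT with TNF-α asks what the extract changed in the presence of the cytokine. By limma at an adjusted p under 0.05, 0 of the 33 members were called, as with limma-voom on estimated fragments, where 1 gene of the 25417 (0.00393%) was called by limma. At an unadjusted p under 0.05, 4 members passed, Itga8, Itgal, Itga1 and Itga10, against 6.31% of all genes. By the thresholds of the study's methods 0 members passed, against 1.12% of all genes.

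Itga8 was lower in TNF-α+WBT by 0.34 on the log2 scale (95% interval -0.57 to -0.10, adjusted p = 0.65, limma), and the groups did not overlap. Itga1 had a log2 difference of 0.13 (0.02 to 0.24, adjusted p = 0.745) and Itga10 of -0.26 (-0.50 to -0.02, adjusted p = 0.766), so these 3 differences did not pass the adjustment. Itgal, the α chain of LFA-1, had 0.0439, 0.0488 and 0.0284 FPKM in Con, 0, 0.00854 and 0.0101 in TNF-α, and 0.0433, 0.0290 and 0.0488 in TNF-α+WBT, which stand for 3.0 to 6.0, 0 to 1.0 and 3.0 to 4.2 estimated fragments, too few for a fold change. The other 4 called members described had intervals around 0 in this comparison: -0.11 to 0.05 for Itga3, -0.34 to 0.18 for Itga2, -0.17 to 0.14 for Itga6 and -0.27 to 0.52 for Itgb2. For the abundant chains the intervals were narrow, -0.12 to 0.07 for Itgb1, -0.07 to 0.06 for Lamb1 and -0.08 to 0.06 for Lamc1.

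The comparison of TNF-α+WBT with Con shares its Con libraries with the first comparison and its TNF-α+WBT libraries with the second, so its values stand beside them and do not add support. In it, 5 of 33 members (15.2%) were called, Itga8, Itga3, Itgb2, Itga2 and Itga6, and these 5 were higher in TNF-α+WBT, against 3.71% of all genes called in either direction, 2.31% called higher, and 6.46% of genes averaging at least 1 FPKM. The log2 differences were 1.65 for Itga8 (adjusted p = 5.87e-05), 0.19 for Itga3 (adjusted p = 0.0181), 0.96 for Itgb2 (adjusted p = 0.0183), 0.60 for Itga2 (adjusted p = 0.0251) and 0.31 for Itga6 (adjusted p = 0.0426). Itga4 had a log2 difference of 0.63 (adjusted p = 0.0753). By the study's thresholds Itga8 passed, against 2.29% of all genes. The number called fell to 1 without the first or the third Con library and to 2 without any 1 TNF-α+WBT library, and Itga8 was the gene called in all of these. Itga6 was called in this comparison with all 9 libraries but lost without any 1 of 8 of them, the second Con library being the exception.

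**Figure D4:**
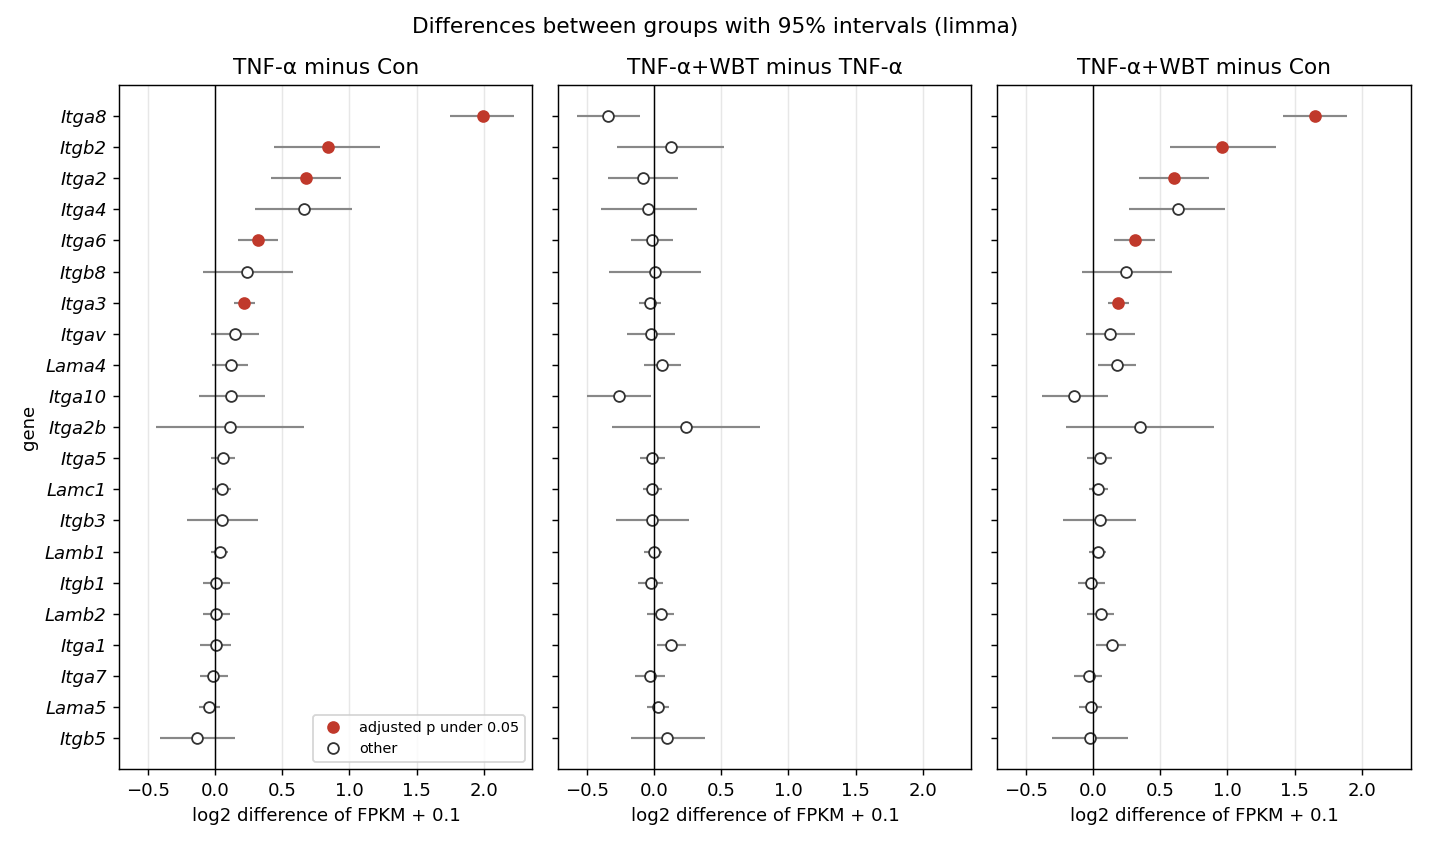
Log2 differences of FPKM + 0.1 (points) with 95% intervals from limma for 21 members with a mean of at least 1 FPKM, in the 3 comparisons; filled points have an adjusted p under 0.05. The left and right panels share the Con libraries; the middle panel, TNF-α+WBT minus TNF-α, has 0 filled points, and Itga8 lies at 1.99, -0.34 and 1.65 in the 3 panels.

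The Itga7 total overlapped between Con and TNF-α, but its main transcripts did not. Exons of Mettl7b overlap those of Itga7 on the opposite strand, and whether the counting used strand is not given in the sources used here. Transcripts Itga7-201 and Itga7-202, of 25 exons each, differ in exon 5, 1 of a pair of alternative coding exons that code for part of the extracellular, ligand-binding region of α7. Both exons lie on chromosome 10 of GRCm38, plus strand, in the GENCODE M21 annotation, and both have lengths divisible by 3. The exon of Itga7-202, at chr10:128941445-128941576, has 132 bases of which 70.5% are G or C, and the exon of Itga7-201, at chr10:128941822-128941941, has 120 bases of which 49.2% are G or C. They are shown because they set apart the most abundant Itga7 transcripts, whose shares differed between Con and TNF-α:
Itga7-202 exon 5: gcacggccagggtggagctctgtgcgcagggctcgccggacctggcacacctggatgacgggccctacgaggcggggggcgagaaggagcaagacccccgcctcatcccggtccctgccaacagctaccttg
Itga7-201 exon 5: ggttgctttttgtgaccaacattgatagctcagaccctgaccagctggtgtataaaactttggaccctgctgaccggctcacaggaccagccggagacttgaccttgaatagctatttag

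Itga7-201 had 23.5, 24.5 and 22.7 FPKM in Con, 16.4, 16.8 and 15.5 in TNF-α, and 21.3, 20.1 and 15.8 in TNF-α+WBT. Itga7-202 had 49.8, 55.6 and 57.3 FPKM in Con, 61.9, 59.4 and 61.0 in TNF-α, and 52.6, 57.6 and 58.5 in TNF-α+WBT. Of the summed FPKM of both, Itga7-201 thus held 32.0, 30.6 and 28.4% in Con, 20.9, 22 and 20.3% in TNF-α, and 28.9, 25.9 and 21.3% in TNF-α+WBT. Con and TNF-α did not overlap, and the TNF-α+WBT libraries were spread from the Con to the TNF-α range. Of the 3 other Itga7 transcripts, the retained-intron transcript Itga7-205 also did not overlap between these groups, at 1.30 to 1.40 FPKM in Con, 1.69 to 1.94 in TNF-α and 1.30 to 1.38 in TNF-α+WBT, and the other two overlapped. These shares were noticed after the transcript values were seen and are a description with no test. The share of all transcripts that did not overlap between Con and TNF-α was not counted. The precision of the division between transcripts is unknown.

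**Figure D5:**
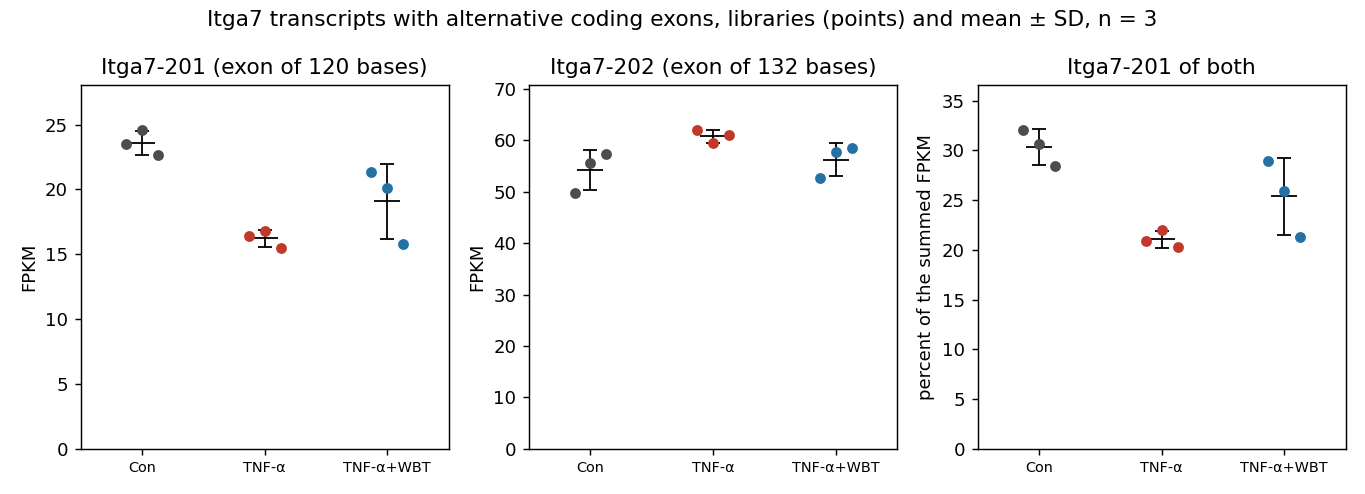
FPKM of the Itga7 transcripts with the 120-base (left) and the 132-base (middle) alternative exon, and the first as a percent of both (right), in each library (points) with mean and SD (n = 3 per group). The Con libraries lie at 28.4 to 32.0% and the TNF-α libraries at 20.3 to 22%.

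In Itga3, Lamb1 and Itgb5 the division between transcripts varied widely between libraries of at least 1 group. Of Itga3-201 and Itga3-202, with 26 and 25 exons, the first held 35.1 to 97.3% in Con, 95.5 to 99.2% in TNF-α and 31.3 to 91.3% in TNF-α+WBT. Of Lamb1-201 and Lamb1-205, the first held over 90% in 7 libraries, but 17.7% in the third TNF-α and 23.7% in the third TNF-α+WBT library. Itga6-201 held 85.8 to 99.3% of the sum with Itga6-202, with the groups overlapping. In 3 other genes the share of the main transcript was steady: over the 9 libraries, Itga1-201 held 85.1 to 88.0% of its gene's FPKM, Lamb2-201 71.9 to 75.4% and Lamc1-201 96.3 to 98.3%. Lama4-201 held 93.8 to 96.3% in Con, 87.6 to 92.4% in TNF-α and 90.3 to 93.5% in TNF-α+WBT, and Lamb2-207, of 473 bases, held 7.80 to 9.48%, 4.35 to 6.93% and 7.47 to 10.1%, so Con and TNF-α did not overlap in either. Shares of other transcripts also did not overlap between these groups, such as that of Lamb2-205, at 14.5 to 16.4% in Con and 16.5 to 18.1% in TNF-α. The share of all transcripts that did not overlap was not counted. These are descriptions with no test.

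RefSeq promoter sequences (GRCm38.p6) matched 23 of the 37 members, among them Itga8, Itga2 and Itga3 of the called genes. The 250 bases before the transcript start were searched on both strands for the NF-κB consensus, for the AP-1 site TGANTCA, for TATAAA and for the GC box GGGCGG. Of all 32851 promoters of this length, 7.25% held the NF-κB consensus, 6.75% the AP-1 site, 12.4% TATAAA and 32.7% the GC box. Among the 23 members, the NF-κB consensus was found for 1 (Lamb3), the AP-1 site for 1 (Itgax), TATAAA for 0 and the GC box for 8. The Lamb3 window with this match lay 94544 bases from the gene start in GENCODE M21. Windows of Itga9 (105002 bases) and Lama2 (2816), and second windows of Itgb6 (48950) and Itga3 (7603), also lay away from that start. Whether such windows belong to the transcripts measured was not tested. The windows of the 3 called genes are shown, since each was called higher in TNF-α than in Con, with GC boxes in capitals. Itga8 (chr2:12301945-12302194, minus strand) and Itga2 (chr13:114932101-114932350, minus strand) held 0 of the 4 motifs, and Itga3 (chr11:95076715-95076964, minus strand) held 3 GC boxes. A missing match says only that these letters are not in this window:
Itga8: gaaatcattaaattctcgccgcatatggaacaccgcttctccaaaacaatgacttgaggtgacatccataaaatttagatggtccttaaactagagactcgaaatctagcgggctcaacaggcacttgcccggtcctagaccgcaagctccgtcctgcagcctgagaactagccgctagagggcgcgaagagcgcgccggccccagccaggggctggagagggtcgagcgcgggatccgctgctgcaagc
Itga2: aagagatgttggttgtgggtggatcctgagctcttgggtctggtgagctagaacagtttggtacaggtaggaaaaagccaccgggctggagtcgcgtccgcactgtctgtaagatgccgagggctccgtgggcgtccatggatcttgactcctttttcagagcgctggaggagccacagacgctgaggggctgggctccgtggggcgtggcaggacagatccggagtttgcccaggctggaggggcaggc
Itga3: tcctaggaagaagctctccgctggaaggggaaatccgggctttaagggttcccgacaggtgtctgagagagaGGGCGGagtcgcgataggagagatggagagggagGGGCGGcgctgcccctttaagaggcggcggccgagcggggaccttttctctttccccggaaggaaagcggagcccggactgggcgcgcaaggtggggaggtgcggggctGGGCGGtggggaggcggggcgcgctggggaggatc

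The proteins around these chains were followed in 4 lists written from general knowledge. Among 34 proteins that link integrins to actin and to signalling, 5 were called between TNF-α and Con, 2 higher and 3 lower, where 4.86% of all genes tested and 8.37% of those averaging at least 1 FPKM were called, with a list median of 0.11 against 0.00 over all genes. The same shares stand beside the counts of the other 3 lists in this comparison. Lims2 (PINCH-2, an adaptor of integrin-linked kinase) fell by 1.02 on the log2 scale (adjusted p = 0.00386), from 14.1 ± 0.880 FPKM in Con to 6.99 ± 1.40 in TNF-α, with 9.33 ± 0.894 in TNF-α+WBT. Bcar1 (p130Cas, a scaffold) rose by 0.31 (adjusted p = 0.0029), and the talin gene Tln1, whose product activates integrins, changed by -0.15 (adjusted p = 0.0208). The paxillin gene Pxn changed by -0.26 (adjusted p = 0.0228).

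Of 20 basement membrane partners of laminin, 19 were tested and 4 were called, 2 higher and 2 lower, with a list median of 0.04. Npnt, which encodes nephronectin, a ligand of α8β1, fell by 1.49 on the log2 scale (adjusted p = 0.00141), from 5.25 ± 1.15 FPKM in Con to 1.77 ± 0.0951 in TNF-α and 2.10 ± 0.313 in TNF-α+WBT (SD, n = 3). It thus moved opposite to the rise of Itga8. Agrn (agrin, which binds laminin and dystroglycan) rose by 0.45 (adjusted p = 0.000582) and Hspg2 (perlecan, a heparan sulfate proteoglycan) by 0.22 (adjusted p = 0.0173). Col18a1, a basement membrane collagen, changed by -0.20 (adjusted p = 0.0137).

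Of 12 other laminin receptors and membrane partners of integrins, 3 were called, each higher, with a list median of 0.14. The tetraspanin gene Cd9 rose by 0.39 (adjusted p = 0.00428), from 66.1 ± 3.31 to 86.8 ± 5.12 FPKM, Sdc4 (syndecan-4, a fibronectin co-receptor) rose by 0.25 (adjusted p = 0.0134), and the tetraspanin gene Cd81 rose by 0.16 (adjusted p = 0.0323).

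Of 26 symbols listed as integrin ligands, 24 were in the table and 23 were tested, and 10 were called, 5 higher and 5 lower, with a list median of 0.01. Vcam1, the ligand of α4β1, rose by 2.13 (adjusted p = 2.08e-07), from 10.7 ± 0.123 FPKM in Con to 47.1 ± 2.84 in TNF-α, with 39.3 ± 1.01 in TNF-α+WBT. Tnc (tenascin-C, bound by α8 and α9 integrins) fell by 1.22 (adjusted p = 8.14e-07), Postn (periostin) by 0.59 (adjusted p = 0.000176), and Edil3, an RGD protein, by 0.46 (adjusted p = 0.000242).

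Between TNF-α+WBT and TNF-α, limma and limma-voom each called 0 genes in all 4 lists. At an unadjusted p under 0.05, 3 of 34, 0 of 19, 0 of 12 and 3 of 23 passed, against 6.31% of all genes. Between TNF-α+WBT and Con, 3 of 34 (2 higher), 4 of 19 (2 higher), 2 of 12 (both higher) and 6 of 23 (1 higher) were called. Of all genes tested 3.71% were called, and of those averaging at least 1 FPKM 6.46%.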

How the data were processed

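The authors deposited FPKM per gene (56289 genes) and per transcript (144726), made per the study's workflow with HISAT2, StringTie and Ballgown from paired-end reads of poly(A) RNA; tool versions, genome build and strand setting are not given in the sources used here. Gene IDs were matched to GENCODE M21 (GRCm38; 98.1% found). Depth was estimated from 10717 single-transcript genes longer than 1000 bases, where 50.8 to 57.0% of low values fell within 0.1 of a whole fragment (20% by chance), so estimated fragments are approximate. Genes with values above 0 in 3 or more libraries entered the test, on log2(FPKM + 0.1), a scale that understates changes of low genes. The fit used limma 3.58.1 (R 4.3.3, lmFit, eBayes with trend, 1 model over 9 libraries) and Benjamini-Hochberg adjustment over all genes tested. It was tested on simulated data with changes of 2-fold or more, and smaller changes, such as those of several called members, were not simulated. Python 3.11.15, pandas 2.3.3 and scipy 1.17.1 were used. Members with a group mean of at least 1 FPKM are given with all 9 values, the others by range; from each list, up to 4 called genes with the smallest p between TNF-α and Con are named. Members and lists were chosen with earlier results of these data known. Same-numbered libraries of different groups did not deviate together (correlations -0.0674 to 0.0953), so no pairing was used. Alternatives: 11 settings and 9 fits without 1 library. The values of 1 member and of 1 list gene are not reported here, though counts include them.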

Additional observations from a re-analysis of the deposited data

How the results depend on the processing

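The log2 differences of Itga8, Itga3, Itga2, Itgb2, Itga6 and Itga4 against Con, and of Itga8, Itgal, Itga1 and Itga10 between TNF-α+WBT and TNF-α, kept their sign in the 11 alternative settings and the 9 fits without 1 library (Itgal was not tested with the filter at 1 FPKM); the 0 calls between TNF-α+WBT and TNF-α held in all of them. Between TNF-α and Con, leaving out 1 library gave 2 to 7 members called and 1 to 3 past the study's thresholds. Fitting only the 2 groups compared gave 3 called, and a pseudocount of 1 gave 1 past the thresholds. Limma-voom called 8, among them Itgal, whose FPKM was lower in TNF-α, on at most 6.0 estimated fragments per library. Between TNF-α+WBT and TNF-α, 1 member, Itgal, passed the thresholds with a pseudocount of 0.01 and with limma-voom, on at most 4.2 estimated fragments in those libraries; leaving out 1 library gave 0 to 0 for both counts. Between TNF-α+WBT and Con, leaving out 1 library gave 1 to 5 called and 1 to 3 past the thresholds; 3 were called without the trend and 1 with only the 2 groups compared, and 3 passed the thresholds with a pseudocount of 0.01 and with limma-voom. The cause of these shifts was not tested. With the replicate number as a block, the comparison of TNF-α with Con had 4 members called, that of TNF-α+WBT with TNF-α had 0, and 4 were called between TNF-α+WBT and Con; the calls lost included Itgb2 (adjusted p = 0.0546) in the first comparison and were Itga2 (adjusted p = 0.0633) in the third, and the libraries share only a number: in 6 of 18 cases a library correlated best with its own number in another group. Limma-voom called 8 of the 34 adhesion proteins and 7 of the 19 basement membrane partners between TNF-α and Con, against 5 and 4, and 6 and 7 between TNF-α+WBT and Con, against 3 and 4. Members under 1 FPKM rested on at most 81.1 estimated fragments per library, which limits what could be detected for them.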
